A study of Mus musculus with 12 samples.

Results

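Sterol and fatty acid synthesis genes were followed as a group of 44 symbols. They encode enzymes that make isoprenoids, cholesterol and fatty acids, and enzymes that desaturate, elongate and activate fatty acids. The rest encode the SREBP transcription factors, which act on many genes of these pathways, and proteins tied to their control. All 44 had a row among the 23234 gene symbols measured, and 42 averaged 1 FPKM or more across the 12 libraries, as did 10305 genes in all. FPKM (fragments scaled to transcript length and to the mapped fragments of the library) makes levels comparable between genes of different length. Below that mean were Hmgcs1, whose enzyme makes HMG-CoA and which is listed at 0 in all 12 libraries, and Acacb, an isoform of acetyl-CoA carboxylase, which reached 0.0556 FPKM at most. Lyz2, a gene of myeloid cells, is listed at 0 in all 12 libraries too, so a value of exactly 0 does not show that the RNA was absent.

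The cells were primary mouse acute myeloid leukaemia (AML) cells of the genotype NRASG12V/Mll-AF9 on an (FVB/n X C57/BL/6J) F1 background, grown with serum and GM-CSF. For 24 h they received 20 µM PD325901, an inhibitor of the MEK kinases, 26 µM RAD001 (everolimus), an inhibitor of the mTOR complex that contains raptor, 20 µM GDC0941, an inhibitor of class I PI3 kinases, or the vehicle DMSO. Each of the 4 groups has 3 libraries, and all 4, DMSO included, carry the mutant NRAS and the MLL fusion. The labels do not give the promoter that drives NRASG12V, the number of animals, or whether the doses were matched for potency. They also do not say that replicates were separate cultures, so p-values measure only the spread between these libraries, which may be technical.

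Of 8 myeloid markers, 7 averaged 1 FPKM or more, and their summed level was 783 to 802 FPKM with PD325901, 1867 to 2111 with RAD001, 1446 to 1568 with GDC0941 and 790 to 924 with DMSO. Megakaryocyte markers, mostly Pf4, summed to 10.8 to 35.6 FPKM with PD325901, 215 to 278 with RAD001, 3.72 to 4.76 with GDC0941 and 77.1 to 133 with DMSO. Markers of liver cells and of fat cells, both rich in lipid synthesis, summed to 0.0936 FPKM at most in any library. Ttr, Apoa1 and Lep among them were at 0 in all 12, as was the B cell marker Pax5. As with Lyz2, such values do not show absence, so the liver and fat sums rest on Alb, Adipoq and Plin1. The markers of T and NK cells, B cells and erythroid cells summed to 10.8, 8.13 and 1.25 FPKM at most, and those of stromal and endothelial cells to 17.5. Whether the shift in myeloid and megakaryocyte markers has a part in the values below was not tested. In bulk RNA, fewer cells of a type and less RNA per cell cannot be told apart. Set against DMSO replicate 1, estimated library depth lay between 0.842 and 1.2. Both ends are RAD001 libraries and the least certain. The ratio behind them was held by 4.32% to 7.36% of low values, against 10.9% or more in other groups. Pairs of libraries of the same group had Spearman correlations over genes between 0.966 and 0.996, and pairs from different groups between 0.875 and 0.965.

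Cells make cholesterol from acetyl-CoA by way of mevalonate, farnesyl diphosphate and squalene, and they make saturated fatty acids from acetyl-CoA through malonyl-CoA. SREBP proteins, encoded by Srebf1 and Srebf2, sit in the endoplasmic reticulum bound to SCAP, which carries them to the Golgi to be cleaved when membrane sterol is low, whereas INSIG proteins hold SCAP back when sterol is high. The released part enters the nucleus and binds sterol regulatory elements, usually beside sites for NF-Y and SP1, in the promoters of most genes of both pathways. Signalling through mTOR is known to raise SREBP activity in many cell types.

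SREBP is known to act through the promoters of many such genes, so 4 promoters are shown. They belong to genes that moved in different ways and were picked with their values known. Insig1 and Sc4mol (also named Msmo1) were lower with both PD325901 and RAD001. Srebf2 and Lss were lower with PD325901 and did not pass the test with RAD001. The sequences are RefSeq's on GRCm38.p6, 5′ to 3′ on the strand of the gene, and cover the 250 bases before the annotated start. They lie at chr5:28071162-28071411 on the + strand for Insig1, chr15:82147019-82147268 on the + strand for Srebf2, chr8:64733579-64733828 on the - strand for Sc4mol and chr10:76531355-76531604 on the + strand for Lss. Capitals mark matches, on either strand, to the first or last 8 letters of a sterol regulatory element written as TCACNCCAC (TCACNCCA and CACNCCAC, which overlap each other), to the NF-Y box CCAAT and to the SP1 box GGGCGG.
Insig1: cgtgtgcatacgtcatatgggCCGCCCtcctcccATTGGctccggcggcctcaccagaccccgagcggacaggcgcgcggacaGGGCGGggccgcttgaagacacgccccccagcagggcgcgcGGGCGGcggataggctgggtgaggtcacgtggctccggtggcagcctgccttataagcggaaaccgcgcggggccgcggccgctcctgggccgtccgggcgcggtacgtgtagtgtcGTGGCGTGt
Srebf2: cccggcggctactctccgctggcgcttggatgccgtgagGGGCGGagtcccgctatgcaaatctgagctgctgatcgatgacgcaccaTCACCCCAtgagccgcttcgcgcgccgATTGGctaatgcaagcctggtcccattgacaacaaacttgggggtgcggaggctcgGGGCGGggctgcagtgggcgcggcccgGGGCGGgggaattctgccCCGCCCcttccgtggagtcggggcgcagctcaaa
Sc4mol: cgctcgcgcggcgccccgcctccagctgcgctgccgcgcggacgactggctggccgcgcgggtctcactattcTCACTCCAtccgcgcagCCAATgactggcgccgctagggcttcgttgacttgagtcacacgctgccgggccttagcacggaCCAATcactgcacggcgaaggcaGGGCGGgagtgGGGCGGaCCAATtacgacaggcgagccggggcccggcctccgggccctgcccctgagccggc
Lss: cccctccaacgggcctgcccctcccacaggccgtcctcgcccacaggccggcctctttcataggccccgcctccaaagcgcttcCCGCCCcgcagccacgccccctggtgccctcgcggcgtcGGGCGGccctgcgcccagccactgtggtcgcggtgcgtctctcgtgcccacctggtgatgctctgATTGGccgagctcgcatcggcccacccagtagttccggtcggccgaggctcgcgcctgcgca
The element-like letters lay 2 to 9 bases before the start in Insig1, 155 to 162 in Srebf2 and 170 to 177 in Sc4mol, and no such match was found in the Lss window. Of the 42 genes, 35 have a window in the table, 46 windows in all. CCAAT was found in 60.9% of those 46 windows and in 33.8% of all 32851 windows of the same length. GGGCGG was found in 67.4% and 32.7%. The 46 windows belong to genes averaging 1 FPKM or more, whereas the 32851 were taken without a filter on level. The sets are therefore not matched for level, and the shares do not set these genes against comparable ones. The full TCACNCCAC stood in 1 of the 46 windows (2.17%), a window of Acsl1, and in 1.05% of all windows. Its first 8 letters stood in 3 of the 46 (6.52%) and in 3.67% of all windows. Its last 8 letters stood in 4 (8.7%) and in 5.29%. The full match is counted in both 8-letter forms, and counts this small do not show an excess. A match is a run of letters and not a measured binding site, and these data hold no binding measurement.

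With PD325901, 27 of the 42 genes were lower than with DMSO and 2 were higher at an adjusted p under 0.05 (limma), where 28.2% of all genes tested were lower and 18.4% higher, 46.6% in all. With RAD001, 23 were lower and 3 higher, where 15.9% of all genes were lower and 15.4% higher, 31.3% in all. With GDC0941, 1 was lower and 2 were higher, where 12.7% of all genes were lower and 11.6% higher, 24.3% in all. The median log2 difference from DMSO over the 42 genes was -0.68 with PD325901, -0.78 with RAD001 and -0.11 with GDC0941, and over all genes tested it was -0.06, 0.00 and 0.02. A fall of at least 1 on the log2 scale that passed the test was seen for 14 genes with PD325901, 14 with RAD001 and 0 with GDC0941. All log2 values are differences of log2(FPKM + 1), which understate the change of genes near 1 FPKM. The RAD001 count of 26 changed genes was 16 without RAD001 replicate 3, 17 without DMSO replicate 2 and 16 without DMSO replicate 3, and 13 when no filter on low values was applied. The GDC0941 count of 3 was 14 without GDC0941 replicate 1 and 1 without DMSO replicate 1. Except for the fit without GDC0941 replicate 1, the share of all genes called in these fits is not given here. The shifts therefore show nothing particular to the 42 genes. Among the 42, Me1 reached the mean of 1 FPKM only through RAD001 and Scd1 only through DMSO, since their means over the other 9 libraries were 0.649 and 0.746 FPKM. Both are in the counts above and below. A gene let in by the group where it is high had to differ from the others. Their calls are therefore no support, and no p-value is given for either.

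**Figure D1:**
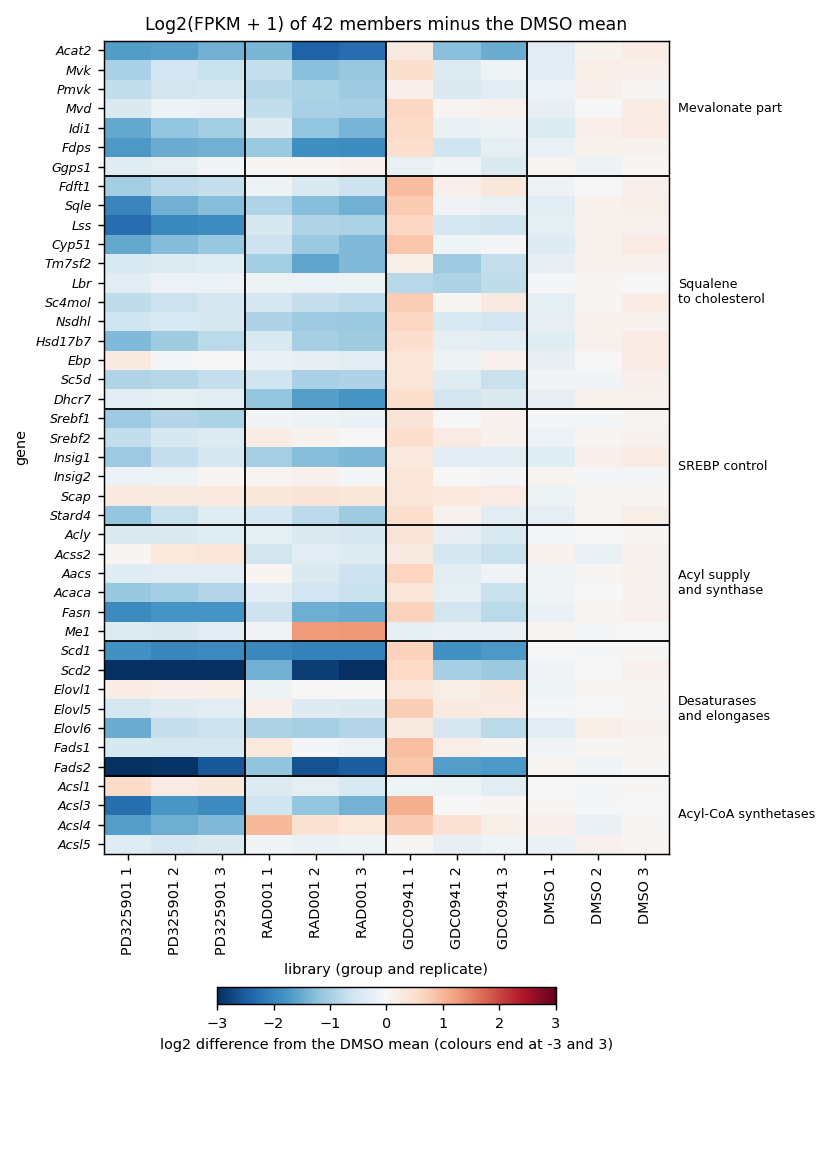
Log2(FPKM + 1) of the 42 genes in each of the 12 libraries minus the mean of the 3 DMSO libraries, with genes in rows by role and libraries in columns; blue is below and red above the DMSO mean, and colours end at -3 and 3. PD325901 and RAD001 columns are mostly blue, whereas in the GDC0941 columns replicate 1 is mostly red and replicates 2 and 3 are mostly pale blue.

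One GDC0941 library stood apart from the other two on these genes. GDC0941 replicate 1 had the highest value of all 12 libraries for 34 of the 42 genes, and for 1639 of the 10305 genes tested. It lay above both other GDC0941 libraries for 92.9% of the 42 genes and 47.5% of all genes, with a median log2 difference from their mean of 0.74 and 0.08. It lay above all 3 DMSO libraries for 37 of the 42, while GDC0941 replicates 2 and 3 both lay below all 3 DMSO libraries for 19. For all genes tested those shares were 45.2% and 30.4%, against 88.1% and 45.2% for the 42. The replicates numbered 1 stood to one side of their groups elsewhere too. RAD001 replicate 1 was above both other RAD001 libraries for 81% of the 42 genes (45.4% of all genes), PD325901 replicate 1 was below both others for 78.6% (33.4% of all genes) and DMSO replicate 1 was below both others for 76.2% (41.2% of all genes). The median differences of these libraries from the mean of the other 2 were 0.34, -0.18 and -0.24. The separation was not confined to these genes. Over all genes tested, replicates 2 and 3 had Spearman correlations of 0.995 with PD325901, 0.996 with RAD001, 0.987 with GDC0941 and 0.996 with DMSO. Replicate 1 correlated with them at 0.985, 0.971 to 0.973, 0.966 to 0.971 and 0.979, in the same order. What sets the libraries numbered 1 apart was not tested. The counts of the 42 genes changed with GDC0941 are given with and without its replicate 1. Single genes are given without it only in part, so calls shown only with all libraries may still rest on it.

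Without GDC0941 replicate 1, 13 of the 42 genes were lower with GDC0941 than with DMSO and 1 was higher, where 17.1% of all genes were lower and 13.4% higher. The median log2 difference of the 42 was then -0.25. The 13 were Acat2, Pmvk, Lss, Tm7sf2, Lbr, Nsdhl, Sc5d, Acly, Acss2, Acaca, Fasn, Scd1 and Fads2, and the 1 that rose was Scap. Scd1 is counted among the 13 although the DMSO libraries, where it is high, carried it past the filter. Column by column, the median of the 42 genes relative to the DMSO mean was -0.83, -0.61 and -0.51 in the PD325901 libraries, -0.48, -0.85 and -0.91 in the RAD001 libraries, 0.47, -0.24 and -0.29 in the GDC0941 libraries, and -0.16, 0.07 and 0.11 in the DMSO libraries. The PD325901 and RAD001 medians lay below all 3 DMSO medians, and the GDC0941 medians lay on both sides of them. Over the 19 sterol pathway enzymes alone the medians were -0.90, -0.64 and -0.66 with PD325901, -0.63, -1.0 and -1.09 with RAD001, 0.49, -0.36 and -0.34 with GDC0941, and -0.24, 0.12 and 0.15 with DMSO.

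**Figure D2:**
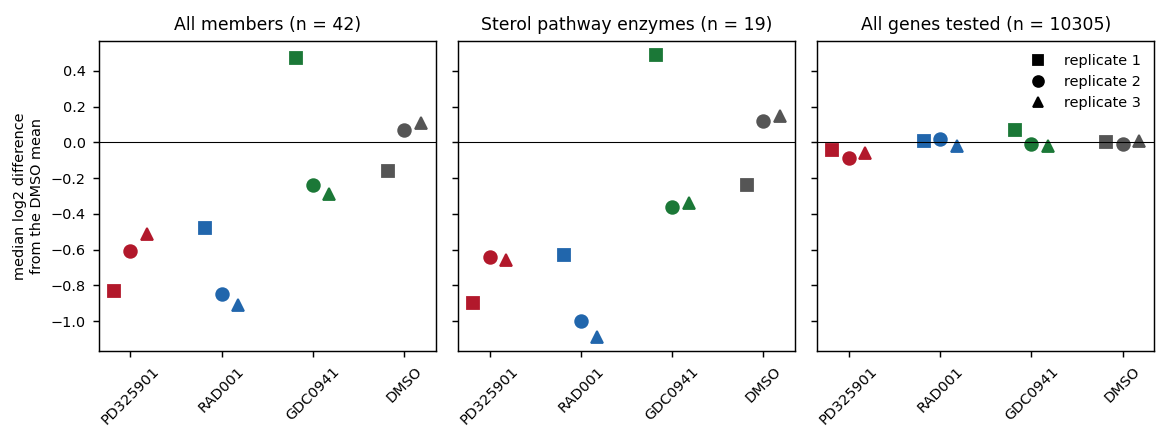
Median over genes of the log2(FPKM + 1) difference from the DMSO mean, 1 point a library, for the 42 genes (left), the 19 sterol pathway enzymes (middle) and the 10305 genes tested (right). The 3 GDC0941 points of the left panel run from -0.29 to 0.47, whereas in the right panel all 12 points lie between -0.09 and 0.07.

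Beside the counts by role that follow, 28.2% of all genes tested were lower with PD325901, 15.9% with RAD001 and 12.7% with GDC0941. Most enzymes of the mevalonate branch fell with PD325901 and RAD001. Of its 7 measured enzymes 5 were lower with PD325901 (Acat2, Mvk, Pmvk, Idi1 and Fdps) and 6 with RAD001 (the same 5 and Mvd), and 0 passed the test with GDC0941 (limma; 1 had an unadjusted p under 0.05). Fdps, which makes farnesyl diphosphate, the branch point to sterols, prenyl groups and ubiquinone, had 49.5, 57.7 and 59.8 FPKM with PD325901, 75.4, 44.9 and 43.9 FPKM with RAD001 and 229, 109 and 137 FPKM with GDC0941, against 144, 176 and 176 FPKM with DMSO. All PD325901 and RAD001 libraries lay below every DMSO library, and GDC0941 replicate 1 lay above and replicates 2 and 3 below them. Fdps averaged 55.6 ± 5.46 FPKM with PD325901 (log2 difference -1.55 ± 0.26, adjusted p = 0.000633), 54.7 ± 17.9 with RAD001 (log2 difference -1.61 ± 0.26, adjusted p = 0.000976) and 158 ± 62.9 with GDC0941 (log2 difference -0.12 ± 0.26, adjusted p = 0.769), against 165 ± 18.6 with DMSO (SD of 3 libraries). Without GDC0941 replicate 1 the GDC0941 difference of Fdps was -0.42 ± 0.22 (adjusted p = 0.161). An annotated gene on the same strand, Gm43738, shares 77.4% of the exon bases of Fdps, and how reads from the shared part were assigned is not given in the sources used here.

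Pmvk, the kinase that adds the next phosphate after mevalonate kinase, had 12.4, 14.2 and 14.6 FPKM with PD325901, 11.4, 10.6 and 9.55 FPKM with RAD001 and 24.1, 15.7 and 16.6 FPKM with GDC0941, against 18.7, 23.9 and 22 FPKM with DMSO. Neither the PD325901 nor the RAD001 libraries overlapped DMSO, and 2 of 3 GDC0941 libraries lay below it. Pmvk fell with PD325901 (log2 difference -0.61 ± 0.15, adjusted p = 0.0061) and with RAD001 (log2 difference -0.96 ± 0.15, adjusted p = 0.000834). Without GDC0941 replicate 1, Pmvk was lower with GDC0941 too (log2 difference -0.39 ± 0.12, adjusted p = 0.0286). Mvd, which decarboxylates the product to isopentenyl diphosphate, had 22.9, 27.5 and 27.1 FPKM with PD325901, 18.1, 15.4 and 15.2 FPKM with RAD001 and 48.4, 32.7 and 34 FPKM with GDC0941, against 26.2, 31.5 and 36.3 FPKM with DMSO. Its RAD001 libraries were the 3 lowest of the 12, and its PD325901 libraries overlapped DMSO. Mvd fell with RAD001 (log2 difference -0.90 ± 0.16, adjusted p = 0.00158), while the PD325901 difference did not pass the test (log2 difference -0.26 ± 0.16, adjusted p = 0.194).

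Acat2, the cytosolic thiolase that makes acetoacetyl-CoA, had the widest RAD001 difference of the branch (log2 difference -2.03 ± 0.40, adjusted p = 0.00349). For PD325901 the Acat2 difference was -1.58 ± 0.40 (adjusted p = 0.00792). For GDC0941 it was -0.82 ± 0.40 (adjusted p = 0.167), and -1.37 ± 0.28 (adjusted p = 0.0048) without replicate 1. Mvk, mevalonate kinase, and Idi1, which isomerises isopentenyl diphosphate, differed from DMSO by -0.74 and -1.25 with PD325901 and by -1.04 and -0.98 with RAD001 on the log2 scale. Ggps1, which makes geranylgeranyl diphosphate for protein prenylation, passed in no comparison with DMSO (log2 difference -0.25 with PD325901, 0.08 with RAD001 and -0.25 with GDC0941). The PD325901 call of Mvk ended without PD325901 replicate 1, DMSO replicate 2 or DMSO replicate 3 (adjusted p = 0.0759, 0.074 and 0.0693). That of Idi1 with RAD001 ended without RAD001 replicate 2 or 3 or DMSO replicate 2 or 3 (adjusted p = 0.0763, 0.089, 0.076 and 0.0824).

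In the branch from squalene to cholesterol, 8 of 12 enzymes were lower with PD325901 and 8 with RAD001, none was higher, and with GDC0941 only Lbr was lower. Leaving out GDC0941 replicate 1, 5 of the 12 were lower with GDC0941 (Lss, Tm7sf2, Lbr, Nsdhl and Sc5d). Sqle, the squalene epoxidase and an oxygen-dependent step, had 5.73, 8.79 and 9.95 FPKM with PD325901, 13.4, 9.99 and 8.84 FPKM with RAD001 and 44.9, 24 and 22.4 FPKM with GDC0941, against 20.6, 28.2 and 29.2 FPKM with DMSO. The PD325901 and RAD001 libraries all lay below DMSO, and GDC0941 replicate 1 was the highest of the 12. Sqle fell with PD325901 (log2 difference -1.57 ± 0.27, adjusted p = 0.000721) and with RAD001 (log2 difference -1.20 ± 0.27, adjusted p = 0.00605).

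Lss, which closes squalene epoxide to lanosterol, the first sterol, had 2.4, 3.35 and 3.48 FPKM with PD325901, 11, 7.83 and 7.59 FPKM with RAD001 and 24.7, 10.7 and 9.94 FPKM with GDC0941, against 12.7, 17.3 and 17.3 FPKM with DMSO. The 3 lowest libraries were those of PD325901, which overlapped no other group, and RAD001 libraries were all below DMSO. Lss averaged 3.07 ± 0.590 FPKM with PD325901 (log2 difference -2.04 ± 0.28, adjusted p = 0.000208), 8.81 ± 1.92 with RAD001 (log2 difference -0.78 ± 0.28, adjusted p = 0.0583) and 15.8 ± 2.64 with DMSO (SD of 3 libraries). The RAD001 difference missed the threshold as deposited and passed it after quantile normalization (adjusted p = 0.0467) and in the fit of the 2 groups alone (adjusted p = 0.0167). Without GDC0941 replicate 1, Lss was lower with GDC0941 too (log2 difference -0.55 ± 0.18, adjusted p = 0.0427).

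Lbr, a sterol reductase that also anchors lamin B and chromatin at the inner nuclear membrane, had 21.1, 23.5 and 23.6 FPKM with PD325901, 23.9, 23.5 and 23.7 FPKM with RAD001 and 14.4, 13.6 and 15.2 FPKM with GDC0941, against 25.5, 27.8 and 26.5 FPKM with DMSO. GDC0941 libraries were the 3 lowest of the 12 and overlapped no other group, and PD325901 and RAD001 libraries all lay under DMSO. Lbr fell with GDC0941 (log2 difference -0.84 ± 0.07, adjusted p = 4.9e-05) and its value did not rest on replicate 1 (log2 difference -0.84 ± 0.08, adjusted p = 8.57e-05 without it). It was also called lower with PD325901 (log2 difference -0.22 ± 0.07, adjusted p = 0.0275), a call that ended with median-ratio scaling (adjusted p = 0.113), with quantile normalization (adjusted p = 0.132) and without PD325901 replicate 1, DMSO replicate 2 or DMSO replicate 3 (adjusted p = 0.0982, 0.103 and 0.0677).

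Tm7sf2, which catalyses the same reduction as Lbr, differed from DMSO by -1.31 ± 0.27 with RAD001 (adjusted p = 0.00381) and by -0.41 ± 0.27 with PD325901 (adjusted p = 0.233). All 3 PD325901 libraries of Tm7sf2 lay below DMSO, and the limma fit of the 2 groups alone passed it (adjusted p = 0.0196). Dhcr7, the last reductase of the pathway, had 10.6, 10.8 and 10.4 FPKM with PD325901, 5.47, 3.57 and 3.24 FPKM with RAD001 and 19.3, 8.88 and 9.77 FPKM with GDC0941, against 11.3, 14.7 and 14.7 FPKM with DMSO. RAD001 libraries were the 3 lowest, and PD325901 libraries lay just under DMSO. Dhcr7 fell with RAD001 (log2 difference -1.53 ± 0.24, adjusted p = 0.00097), whereas with PD325901 the difference did not pass (log2 difference -0.32 ± 0.24, adjusted p = 0.307). The PD325901 difference of Dhcr7 did pass in the limma fit of the 2 groups alone (adjusted p = 0.0383).

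Of the enzymes that strip methyl groups from lanosterol, Cyp51 and Sc4mol were lower with PD325901 (log2 difference -1.33 and -0.63) and with RAD001 (-1.02 and -0.66), as was Hsd17b7 (-1.07 and -0.84). Nsdhl passed with RAD001 (log2 difference -1.04 ± 0.25, adjusted p = 0.00933) and not with PD325901 (-0.51 ± 0.25, adjusted p = 0.116). All 3 PD325901 libraries of Nsdhl lay below DMSO, and the limma fit of the 2 groups alone passed it (adjusted p = 0.00667). Sc5d, the sterol desaturase, differed by -0.82 with PD325901 and -0.84 with RAD001, and Ebp, the sterol isomerase, passed with neither (0.08 and -0.26). Leaving out 1 library ended the RAD001 calls of Cyp51 (RAD001 replicate 3 or DMSO replicate 3, adjusted p = 0.0537 and 0.0549), of Sc4mol (RAD001 replicate 3, DMSO replicate 2 or 3, adjusted p = 0.0532, 0.0511 and 0.0628) and of Hsd17b7 (RAD001 replicate 2 or 3, DMSO replicate 2 or 3, adjusted p = 0.0933, 0.0994, 0.0897 and 0.104).

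Fdft1, squalene synthase, had 7.14, 8.6 and 9.13 FPKM with PD325901, 14, 11.3 and 9.75 FPKM with RAD001 and 30.5, 17.5 and 20.1 FPKM with GDC0941, against 14, 15.5 and 17.4 FPKM with DMSO. It fell with PD325901 (log2 difference -0.84 ± 0.19, adjusted p = 0.00362) and did not pass with RAD001 (log2 difference -0.40 ± 0.19, adjusted p = 0.125). Its PD325901 libraries were the 3 lowest of the 12, and its RAD001 libraries all lay below DMSO, replicate 1 narrowly. Fdft1 exons overlap those of Ctsb, a cathepsin gene on the opposite strand, over 20.9% of its exon bases. Ctsb had 2406, 1210 and 1263 FPKM with PD325901, 1045, 759 and 698 FPKM with RAD001 and 1664, 866 and 887 FPKM with GDC0941, against 1557, 1217 and 1280 FPKM with DMSO, with no call in any comparison with DMSO. Whether the counting used strand is not given in the sources used here, so Ctsb reads in Fdft1 cannot be told apart from its own.

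Of the 6 SREBP control genes, 4 were lower and 1 higher with PD325901 (Srebf1, Srebf2, Insig1 and Stard4 lower, Scap higher), 2 were lower and 1 higher with RAD001 (Insig1 and Stard4 lower, Scap higher), and Scap alone passed with GDC0941. Srebf1, whose SREBP1 isoforms mainly drive fatty acid synthesis, had 13.2, 15.5 and 14.7 FPKM with PD325901, 27.6, 26.2 and 25.3 FPKM with RAD001 and 38.4, 29.6 and 32.1 FPKM with GDC0941, against 28.4, 28.6 and 30.9 FPKM with DMSO. PD325901 libraries were the 3 lowest and overlapped no other group, and RAD001 libraries lay just under DMSO. Srebf1 averaged 14.5 ± 1.16 FPKM with PD325901 (log2 difference -0.97 ± 0.10, adjusted p = 2.5e-05), 26.4 ± 1.16 with RAD001 (log2 difference -0.15 ± 0.10, adjusted p = 0.279), 33.3 ± 4.55 with GDC0941 (log2 difference 0.17 ± 0.10, adjusted p = 0.226) and 29.3 ± 1.37 with DMSO (SD of 3 libraries). With GDC0941 replicate 1 left out the GDC0941 difference was 0.07 ± 0.09 (adjusted p = 0.56). Its isoforms are one row here and were not separated.

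Srebf2, whose SREBP2 mainly drives sterol synthesis, had 22.5, 27 and 28.1 FPKM with PD325901, 44.2, 40.9 and 37.8 FPKM with RAD001 and 54.6, 45.4 and 41.6 FPKM with GDC0941, against 33.3, 39.8 and 41.1 FPKM with DMSO. PD325901 libraries again were the 3 lowest, RAD001 libraries overlapped DMSO, and GDC0941 libraries lay above DMSO. Srebf2 fell with PD325901 (log2 difference -0.54 ± 0.12, adjusted p = 0.00403) and passed neither with RAD001 (log2 difference 0.11 ± 0.12, adjusted p = 0.531) nor with GDC0941 (log2 difference 0.30 ± 0.12, adjusted p = 0.0991; 0.19 ± 0.12, adjusted p = 0.251 without its replicate 1).

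Insig1, itself an SREBP target that holds SCAP in the endoplasmic reticulum, had 25.1, 33.4 and 37.5 FPKM with PD325901, 26.9, 21.9 and 20.7 FPKM with RAD001 and 66.8, 43.6 and 43.3 FPKM with GDC0941, against 42, 60 and 63.2 FPKM with DMSO. All PD325901 and RAD001 libraries lay below DMSO, and GDC0941 libraries overlapped it. Insig1 fell with PD325901 (log2 difference -0.76 ± 0.21, adjusted p = 0.0115) and with RAD001 (log2 difference -1.20 ± 0.21, adjusted p = 0.0016). Insig2, which encodes the other INSIG protein, had 7.94, 8 and 9.47 FPKM with PD325901, 9.7, 10.1 and 8.87 FPKM with RAD001 and 12, 9.14 and 8.68 FPKM with GDC0941, against 9.69, 8.81 and 8.76 FPKM with DMSO. Its 4 groups overlapped, and no comparison passed (adjusted p = 0.537 with PD325901, 0.703 with RAD001 and 0.543 with GDC0941).

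Scap, the sterol-sensing escort, was higher with PD325901 (log2 difference 0.28 ± 0.08, adjusted p = 0.0111), RAD001 (log2 difference 0.35 ± 0.08, adjusted p = 0.00556) and GDC0941 (log2 difference 0.30 ± 0.08, adjusted p = 0.0166). Its 9 inhibitor libraries ran from 10.4 to 11.5 FPKM and its DMSO libraries from 7.64 to 9.08. The GDC0941 call of Scap ended without DMSO replicate 1 (adjusted p = 0.0587). Stard4, a cytosolic cholesterol carrier, fell with PD325901 (log2 difference -0.73 ± 0.25, adjusted p = 0.0301) and RAD001 (log2 difference -0.79 ± 0.25, adjusted p = 0.0307). The Stard4 call with PD325901 ended without PD325901 replicate 1 or 2 or DMSO replicate 2 or 3 (adjusted p = 0.119, 0.0587, 0.0825 and 0.0977) and that with RAD001 without RAD001 replicate 2 or 3 or DMSO replicate 2 or 3 (adjusted p = 0.0771, 0.112, 0.0917 and 0.104).

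**Figure D3:**
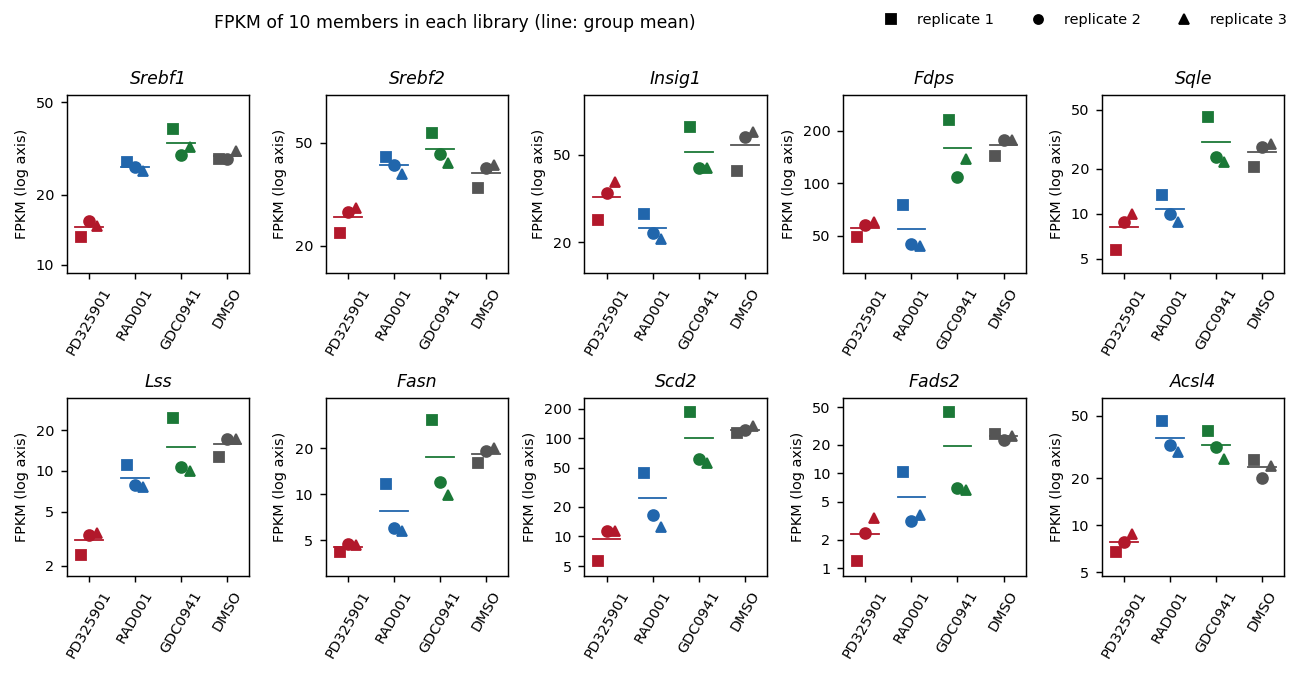
FPKM, on log axes, of 10 genes in each library by group, with squares, circles and triangles for replicates 1, 2 and 3 and a line at the group mean. For Srebf1, Lss, Fasn and Acsl4 the 3 PD325901 points are the lowest of the 12, and for Scd2 and Fads2 GDC0941 replicate 1, at 184 and 44.5 FPKM, stands above the other GDC0941 points.

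Genes that supply acetyl and malonyl units and NADPH, together with fatty acid synthase, numbered 6, of which 2 were lower with PD325901 (Acaca and Fasn), and with RAD001 1 was lower (Fasn) and 1 higher (Me1). Fasn, which builds palmitate, had 4.17, 4.69 and 4.67 FPKM with PD325901, 11.6, 6.03 and 5.74 FPKM with RAD001 and 30.4, 12.1 and 9.95 FPKM with GDC0941, against 15.9, 19.3 and 20 FPKM with DMSO. With PD325901 all 3 libraries lay below the other 9, RAD001 libraries were all below DMSO, and GDC0941 replicate 1 was the highest of the 12 while replicates 2 and 3 lay below DMSO. Fasn averaged 4.51 ± 0.292 FPKM with PD325901 (log2 difference -1.81 ± 0.34, adjusted p = 0.00137), 7.80 ± 3.31 with RAD001 (log2 difference -1.20 ± 0.34, adjusted p = 0.0206), 17.5 ± 11.2 with GDC0941 (log2 difference -0.23 ± 0.34, adjusted p = 0.67) and 18.4 ± 2.18 with DMSO (SD of 3 libraries). Without GDC0941 replicate 1 the GDC0941 difference was -0.69 ± 0.23 (adjusted p = 0.0455). The RAD001 call of Fasn ended without RAD001 replicate 2 or 3 or DMSO replicate 2 or 3 (adjusted p = 0.0757, 0.0774, 0.0625 and 0.0664).

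Acaca, the carboxylase that makes malonyl-CoA and the committed step of fatty acid synthesis, had 2.73, 3.04 and 3.46 FPKM with PD325901, 5.42, 4.45 and 4.16 FPKM with RAD001 and 9.44, 5.65 and 4.11 FPKM with GDC0941, against 6.62, 7.13 and 7.81 FPKM with DMSO. Neither the PD325901 nor the RAD001 libraries overlapped DMSO. Acaca fell with PD325901 (log2 difference -1.01 ± 0.21, adjusted p = 0.00235) and did not pass with RAD001 (log2 difference -0.53 ± 0.21, adjusted p = 0.0731). The RAD001 difference of Acaca did pass in the limma fit of the 2 groups alone (adjusted p = 0.0124). Me1, the cytosolic malic enzyme that yields NADPH, had 0.433, 0.411 and 0.495 FPKM with PD325901, 0.778, 3.59 and 3.67 FPKM with RAD001 and 0.554, 0.648 and 0.622 FPKM with GDC0941, against 0.978, 0.806 and 0.898 FPKM with DMSO. RAD001 replicates 2 and 3 were high and RAD001 replicate 1 lay below all 3 DMSO libraries. All other libraries lay under 1 FPKM, so the call of Me1 as higher with RAD001 rests on those 2 libraries, which also carried the gene past the filter.

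Acly, which splits cytosolic citrate to acetyl-CoA, differed by -0.41 with PD325901 and -0.41 with RAD001 on the log2 scale (adjusted p = 0.0617 and 0.0855), with no overlap with DMSO in either. Both Acly differences passed in the limma fit of the 2 groups alone (adjusted p = 0.00121 and 0.00818). The acetyl-CoA synthetase Acss2 and the acetoacetyl-CoA synthetase Aacs passed in no comparison with DMSO in the fit of all 4 groups. In the limma fit of the 2 groups alone, Aacs was lower with PD325901 (adjusted p = 0.00751) and Acss2 lower with RAD001 (adjusted p = 0.0406). Once GDC0941 replicate 1 was left out, 4 of the 6 were lower with GDC0941, namely Acly (log2 difference -0.36), Acss2 (-0.60), Acaca (-0.49) and Fasn (-0.69).

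On the log2(FPKM + 1) scale the desaturases Scd2 and Fads2 fell by more than any other of the 42 genes with PD325901 and with RAD001. With a pseudocount of 0.1 FPKM the order changed, since Scd1 then had the widest differences of the 42, -3.85 with PD325901 and -4.52 with RAD001. Of 7 desaturases and elongases 5 were lower with PD325901 (Scd1, Scd2, Elovl6, Fads1 and Fads2) and 4 with RAD001 (Scd1, Scd2, Elovl6 and Fads2). Elovl1 alone passed with GDC0941, as higher. Scd1 is in both counts although the DMSO libraries carried it past the filter, so its calls are no support. Scd2, a stearoyl-CoA desaturase that makes oleate, had 5.66, 11.3 and 11.5 FPKM with PD325901, 44.4, 16.4 and 12.5 FPKM with RAD001 and 184, 61.1 and 55.9 FPKM with GDC0941, against 113, 121 and 133 FPKM with DMSO. The PD325901 and RAD001 libraries all lay below DMSO and did not overlap each other, and GDC0941 replicates 2 and 3 were below DMSO while replicate 1 was above it. Scd2 averaged 9.48 ± 3.31 FPKM with PD325901 (log2 difference -3.61 ± 0.50, adjusted p = 0.000185), 24.4 ± 17.4 with RAD001 (log2 difference -2.49 ± 0.50, adjusted p = 0.0034), 101 ± 72.8 with GDC0941 (log2 difference -0.51 ± 0.50, adjusted p = 0.499) and 123 ± 10.2 with DMSO (SD of 3 libraries). Leaving GDC0941 replicate 1 out, the GDC0941 difference of Scd2 was -1.05 ± 0.43 (adjusted p = 0.0916).

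Scd1, a close paralog of Scd2, had 0.186, 0.0857 and 0.12 FPKM with PD325901, 0.103, 0.0206 and 0.0207 FPKM with RAD001 and 5.72, 0.188 and 0.273 FPKM with GDC0941, against 3.25, 3.03 and 3.27 FPKM with DMSO. All inhibitor libraries except GDC0941 replicate 1 lay at 0.273 FPKM or less, and the lowest DMSO library had 3.03 FPKM. The differences from DMSO were -1.89 with PD325901, -2.0 with RAD001 and -0.95 with GDC0941 (-1.77 without its replicate 1), on a log2 scale that understates them at these levels. How reads shared by Scd1 and Scd2 were assigned is not given in the sources used here.

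Fads2, which starts the desaturation of polyunsaturated fatty acids, had 1.18, 2.32 and 3.34 FPKM with PD325901, 10.3, 3.17 and 3.59 FPKM with RAD001 and 44.5, 7.07 and 6.73 FPKM with GDC0941, against 25.9, 22.6 and 25 FPKM with DMSO. PD325901 and RAD001 libraries all lay below DMSO, and GDC0941 replicate 1 was 6.44 times the mean of replicates 2 and 3. Fads2 fell with PD325901 (log2 difference -3.01 ± 0.60, adjusted p = 0.00194) and RAD001 (log2 difference -2.09 ± 0.60, adjusted p = 0.0217), and with GDC0941 without replicate 1 (log2 difference -1.69 ± 0.39, adjusted p = 0.00846). The RAD001 call of Fads2 ended without RAD001 replicate 2 or 3 or any 1 of the 3 DMSO libraries (adjusted p = 0.0813, 0.074, 0.0529, 0.0533 and 0.0604).

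Fads1, which acts later on the same fatty acids, was called lower with PD325901 only (log2 difference -0.50 ± 0.18, adjusted p = 0.0416), and that call ended whichever 1 of the 6 PD325901 and DMSO libraries was left out (adjusted p = 0.0605 to 0.106). Elovl6, which elongates palmitate, fell with PD325901 (log2 difference -0.93 ± 0.28, adjusted p = 0.0174) and RAD001 (log2 difference -0.93 ± 0.28, adjusted p = 0.0256). The Elovl6 call with PD325901 ended without PD325901 replicate 1 or DMSO replicate 2 or 3 (adjusted p = 0.0698, 0.0618 and 0.0548), and that with RAD001 without RAD001 replicate 2 or 3 or DMSO replicate 2 or 3 (adjusted p = 0.0737, 0.0574, 0.0905 and 0.0804). Elovl1, which makes very long chains, was higher with GDC0941 (log2 difference 0.28 ± 0.08, adjusted p = 0.0297). That call ended without GDC0941 replicate 1 or 3 or DMSO replicate 1 or 3 (adjusted p = 0.0673, 0.0693, 0.105 and 0.0504). Elovl5, an elongase of polyunsaturated chains, passed in no comparison with DMSO in the fit of all 4 groups. It was lower with PD325901 in the limma fit of the 2 groups alone (log2 difference -0.40, adjusted p = 0.00362).

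All 4 acyl-CoA synthetases, which activate long-chain fatty acids, passed with PD325901 (3 lower, Acsl1 higher), and 3 passed with RAD001 (Acsl1 and Acsl3 lower, Acsl4 higher). Acsl4, which prefers arachidonate, had 6.78, 7.82 and 8.79 FPKM with PD325901, 46.5, 32.7 and 29.2 FPKM with RAD001 and 40.2, 31.7 and 26.4 FPKM with GDC0941, against 26.3, 20.2 and 24 FPKM with DMSO. PD325901 libraries were the 3 lowest and RAD001 libraries all lay above DMSO. Acsl4 fell with PD325901 (log2 difference -1.48 ± 0.19, adjusted p = 0.000105) and rose with RAD001 (log2 difference 0.58 ± 0.19, adjusted p = 0.0347). The RAD001 call ended without RAD001 replicate 1 or 2 or DMSO replicate 2 or 3 (adjusted p = 0.105, 0.0577, 0.126 and 0.0763).

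Acsl3, found on the endoplasmic reticulum and lipid droplets, had 1.31, 2.29 and 1.93 FPKM with PD325901, 6.29, 3.94 and 3.1 FPKM with RAD001 and 22.3, 10 and 10.4 FPKM with GDC0941, against 10.2, 9.73 and 10.1 FPKM with DMSO. The PD325901 libraries came lowest, RAD001 libraries lay between them and DMSO, and GDC0941 replicate 1 was above the other 11. Acsl3 fell with PD325901 (log2 difference -1.96 ± 0.28, adjusted p = 0.00023) and RAD001 (log2 difference -1.06 ± 0.28, adjusted p = 0.0145; adjusted p = 0.0608 without RAD001 replicate 3). Acsl5 had 39.7, 35.7 and 37.8 FPKM with PD325901, 48.2, 45 and 45.8 FPKM with RAD001 and 53.1, 43.5 and 47.3 FPKM with GDC0941, against 44.4, 56.4 and 54.3 FPKM with DMSO. Its PD325901 libraries were the 3 lowest and it fell with PD325901 alone (log2 difference -0.44 ± 0.10, adjusted p = 0.00449). Acsl1 was higher with PD325901 (log2 difference 0.39 ± 0.10, adjusted p = 0.00645) and lower with RAD001 (log2 difference -0.38 ± 0.10, adjusted p = 0.0117), with no overlap with DMSO in either.

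**Figure D4:**
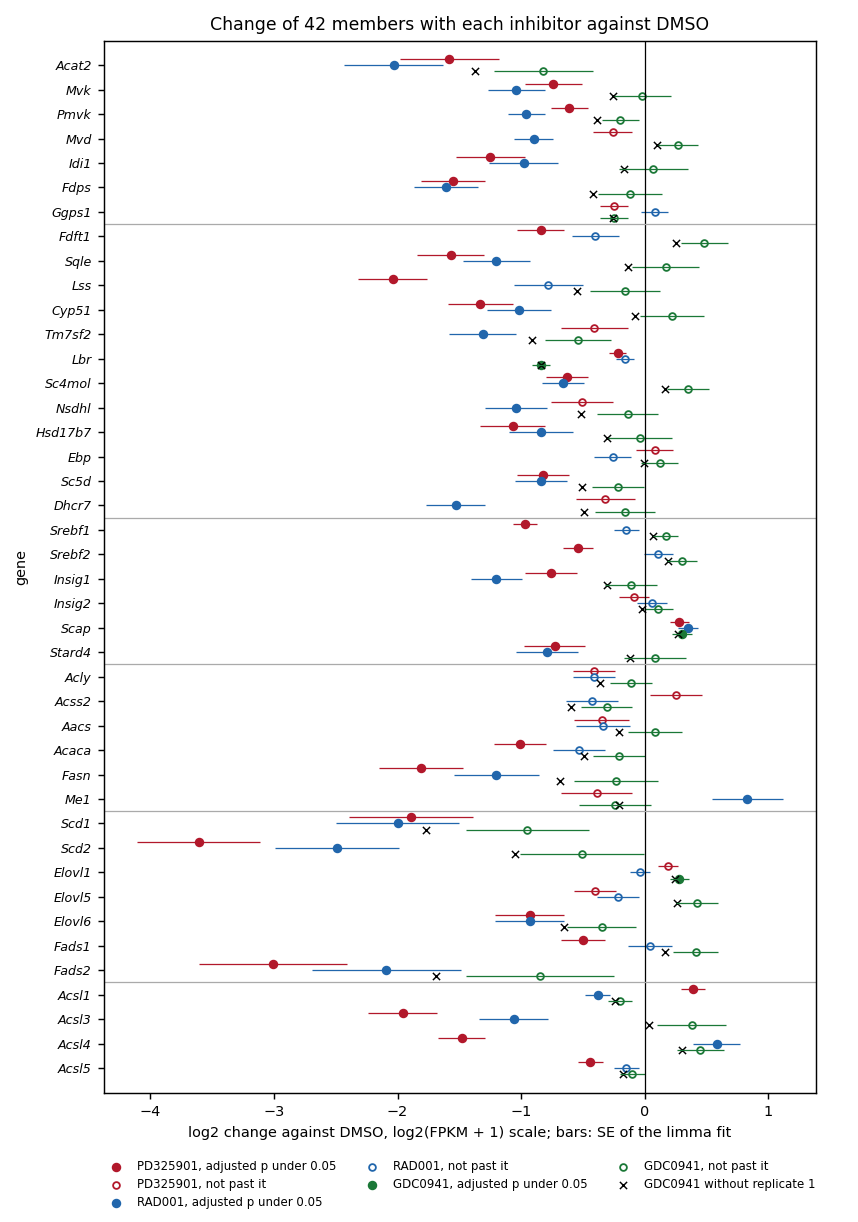
Log2 difference from DMSO of the 42 genes, by role, for PD325901 (red), RAD001 (blue) and GDC0941 (green), with SE bars of the limma fit; filled points have an adjusted p under 0.05 and crosses give the GDC0941 difference without its replicate 1. Scd2 and Fads2 lie farthest left with PD325901, at -3.61 and -3.01, and Acsl4 has PD325901 and RAD001 on opposite sides of 0.

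Among libraries, the 3 PD325901 values lay below all 3 DMSO values for 34 of the 42 genes and above them for 3 (36.9% and 25.8% of all genes tested). The same held with RAD001 for 29 and 2 genes (25.6% and 25.3% of all genes), and with GDC0941 for 3 and 7 (18.3% and 20.3% of all genes).

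PD325901 was set directly against RAD001 to ask which of these genes differ between MEK and mTOR inhibition. At an adjusted p under 0.05, 6 were higher and 9 lower with PD325901 than with RAD001, where 20.8% of all genes were higher and 29.4% lower (50.2% in all), and the median log2 difference of the 42 was -0.07. Lower with PD325901 were Acsl4 (log2 difference -2.06 ± 0.19, adjusted p = 6.31e-06), Lss (log2 difference -1.26 ± 0.28, adjusted p = 0.00337), Srebf1 (log2 difference -0.82 ± 0.10, adjusted p = 4.29e-05), Srebf2 (log2 difference -0.65 ± 0.12, adjusted p = 0.00113), Acsl3, Fads1, Ggps1, Acsl5 and, through the RAD001 libraries that carried it past the filter, Me1. Higher with PD325901 were Dhcr7 (log2 difference 1.21 ± 0.24, adjusted p = 0.00165), Tm7sf2 (log2 difference 0.90 ± 0.27, adjusted p = 0.0148), Acsl1 (log2 difference 0.76 ± 0.10, adjusted p = 6.15e-05), Mvd (log2 difference 0.64 ± 0.16, adjusted p = 0.00544), Acss2 and Elovl1. So Dhcr7, Tm7sf2 and Mvd were lower with RAD001 than with PD325901, and Lss and both Srebf genes lower with PD325901 than with RAD001. Libraries did not overlap for 9 genes above and 14 below (26.6% and 35.9% of all genes). Leaving out 1 library in turn kept 8 of the 15 calls, and ended those of Ggps1, Tm7sf2, Acss2, Elovl1, Fads1, Acsl3 and Acsl5. Tm7sf2 was lost only without RAD001 replicate 2 (log2 difference 0.77, adjusted p = 0.0596). The other 6 each had an adjusted p between 0.0557 and 0.122 without at least 1 of the 6 libraries.

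**Figure D5:**
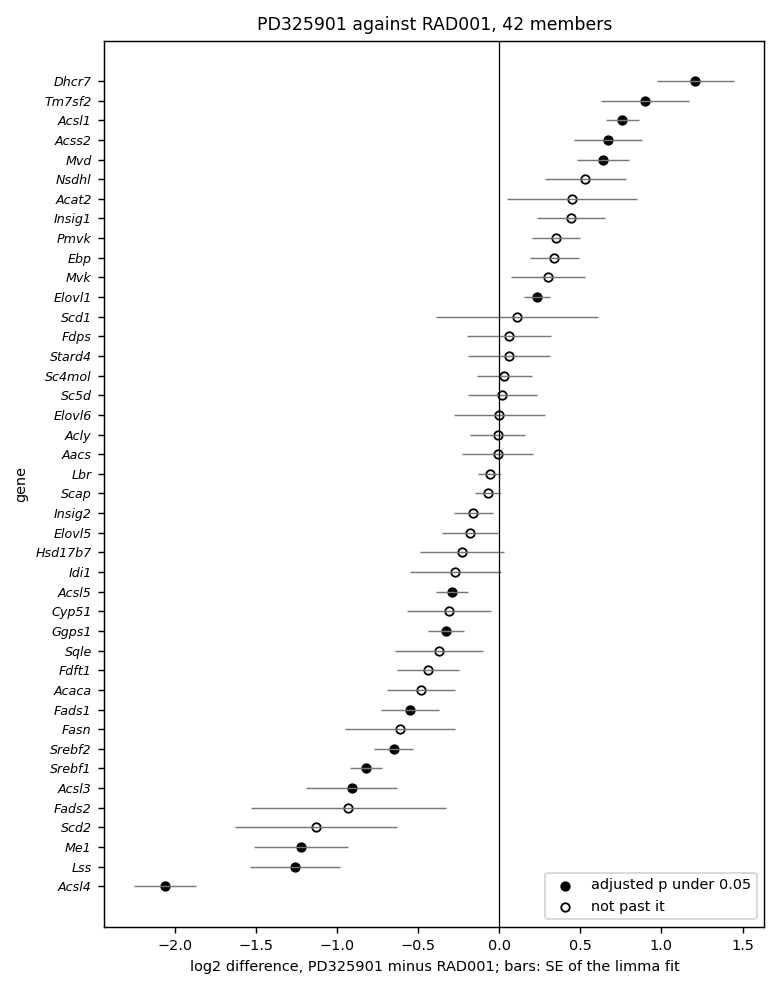
Log2 difference of PD325901 minus RAD001 for the 42 genes, sorted, with SE bars of the limma fit; filled points have an adjusted p under 0.05. Acsl4 at -2.06 and Dhcr7 at 1.21 are the ends of the order, and 15 points are filled.

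Against GDC0941, 25 of the 42 genes were lower and 3 higher with PD325901 (30.7% and 20.9% of all genes, 51.5% in all), with a median log2 difference of -0.74. Without GDC0941 replicate 1 the counts were 19 and 4 (28.1% and 21.8% of all genes), and the median was -0.40. Srebf1 was lower with PD325901 than with GDC0941 (log2 difference -1.14 ± 0.10, adjusted p = 4.27e-06), as were Acsl3 (log2 difference -2.35 ± 0.28, adjusted p = 4.17e-05) and Sqle (log2 difference -1.74 ± 0.27, adjusted p = 0.00026), and all 3 remained past the threshold without GDC0941 replicate 1 (adjusted p = 8.46e-06, 4.06e-05 and 0.000462). Lbr was higher with PD325901 than with GDC0941 (log2 difference 0.62 ± 0.07, adjusted p = 3.46e-05). Libraries did not overlap for 28 genes below and 2 above (33.5% and 23.2% of all genes).

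GDC0941 and RAD001 act on the same signalling axis, and 18 of the 42 genes were higher and 2 lower with GDC0941 than with RAD001 (8.09% and 9.35% of all genes, 17.4% in all), with a median log2 difference of 0.70. The 2 lower were Lbr and Me1, and the call of Me1 is no support, since RAD001 libraries carried it past the filter. Without GDC0941 replicate 1, 13 were higher and 1 lower (6.44% and 9.36% of all genes), with a median of 0.36. The count of 20 was 11 without RAD001 replicate 2 and 13 without RAD001 replicate 3. As the share of all genes called in those 2 fits is not given here, these drops show nothing particular to the 42 genes. Dhcr7 (log2 difference 1.37 ± 0.24, adjusted p = 0.0038), Fdps (log2 difference 1.49 ± 0.26, adjusted p = 0.00322) and Mvd (log2 difference 1.17 ± 0.16, adjusted p = 0.000618) were higher with GDC0941, and without its replicate 1 the adjusted p were 0.00317, 0.00554 and 0.00105. Srebf1 was called higher as well (log2 difference 0.32 ± 0.10, adjusted p = 0.045), but not without GDC0941 replicate 1 (adjusted p = 0.11) or 3 (adjusted p = 0.0684), without RAD001 replicate 2 (adjusted p = 0.117) or 3 (adjusted p = 0.141), with the replicate block (adjusted p = 0.0515), with no filter on low values (adjusted p = 0.095) or in the fit of the 2 groups alone (adjusted p = 0.141). Libraries did not overlap for 22 genes above and 3 below, Me1 among the 3 (17.3% and 14.9% of all genes).

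Further genes of the pathway, 55 of 61 listed averaging 1 FPKM or more, were taken from lists of companion genes. Of all genes tested, 28.2% were lower and 18.4% higher with PD325901, 15.9% and 15.4% with RAD001, and 12.7% and 11.6% with GDC0941. Counts in lists this short were not tested against those shares and are not read as results about the lists. Of 7 genes for SREBP proteases and sterol transport, 3 were higher and 1 lower with PD325901, 2 higher and 1 lower with RAD001, and 3 higher with GDC0941. Soat1, which esterifies cholesterol for storage, had 93.2, 77.9 and 82 FPKM with PD325901, 42.3, 55.6 and 51.8 FPKM with RAD001 and 45, 51.3 and 49.9 FPKM with GDC0941, against 42.8, 48.1 and 51.8 FPKM with DMSO. PD325901 libraries were the 3 highest and the others overlapped (log2 difference 0.81 ± 0.11, adjusted p = 0.000215). Npc1, which exports cholesterol from lysosomes, had 58.9, 54.3 and 56 FPKM with PD325901, 31.1, 40.1 and 38.4 FPKM with RAD001 and 50.5, 52.4 and 42 FPKM with GDC0941, against 35.1, 32.7 and 36.8 FPKM with DMSO. Its PD325901 libraries were the 3 highest and its GDC0941 libraries all lay above DMSO. Npc1 was higher with PD325901 (log2 difference 0.68 ± 0.11, adjusted p = 0.000498) and GDC0941 (log2 difference 0.45 ± 0.11, adjusted p = 0.0111).

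Of 9 genes of prenyl transfer and polyprenyl synthesis, 4 were lower with PD325901 and 0 passed with RAD001 or GDC0941 (limma; 2 and 1 had an unadjusted p under 0.05). Once GDC0941 replicate 1 was omitted, 2 of the 9 were lower with GDC0941. Rabggtb, a subunit of the Rab geranylgeranyl transferase, had 18.4, 14.9 and 16.7 FPKM with PD325901, 24.8, 25.2 and 28.3 FPKM with RAD001 and 26.5, 31.9 and 34.8 FPKM with GDC0941, against 32.7, 27.7 and 26.8 FPKM with DMSO, with the PD325901 libraries below all others (log2 difference -0.76 ± 0.12, adjusted p = 0.000387). Coq2, which joins the polyprenyl tail to the ubiquinone ring, had 8.07, 6.28 and 6.02 FPKM with PD325901, 9.19, 9.54 and 8.99 FPKM with RAD001 and 10.3, 9.55 and 11.5 FPKM with GDC0941, against 11.2, 11.8 and 11 FPKM with DMSO, and its PD325901 libraries were the 3 lowest too (log2 difference -0.67 ± 0.10, adjusted p = 0.000387). Of 5 genes listed as electron carriers of the pathway, 2 were lower with PD325901, and 1 was lower and 1 higher with RAD001. The gene higher with RAD001 was Cyb5 (log2 difference 0.61 ± 0.16, adjusted p = 0.0132). Cyb5b fell with PD325901 (log2 difference -0.59 ± 0.13, adjusted p = 0.004) and RAD001 (log2 difference -0.59 ± 0.13, adjusted p = 0.0069), and Por, the reductase that feeds Cyp51 and Sqle, with PD325901 (log2 difference -0.49 ± 0.12, adjusted p = 0.00537).

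Of 8 genes for citrate export and NADPH supply, 2 were higher and 1 lower with PD325901, 3 higher and 3 lower with RAD001, and 1 lower with GDC0941 (2 higher and 4 lower without its replicate 1). Slc25a1, the mitochondrial citrate carrier, had 31.2, 31.7 and 30.2 FPKM with PD325901, 35.4, 31 and 27 FPKM with RAD001 and 70.5, 36.4 and 43.3 FPKM with GDC0941, against 64.7, 57 and 60.3 FPKM with DMSO. It fell with PD325901 (log2 difference -0.94 ± 0.19, adjusted p = 0.00207) and RAD001 (log2 difference -0.95 ± 0.19, adjusted p = 0.0036), with all 6 libraries below DMSO. With GDC0941 its difference was -0.33 (adjusted p = 0.243), and -0.60 (adjusted p = 0.00356) without GDC0941 replicate 1. Idh1, a cytosolic NADPH source, rose with PD325901 (log2 difference 0.70 ± 0.12, adjusted p = 0.000622). Of 10 other elongation, desaturation and activation enzymes measured, 4 were lower and 1 higher with PD325901, 2 lower and 2 higher with RAD001, and 1 lower and 1 higher with GDC0941 (3 lower and 1 higher without its replicate 1). Hsd17b12, the ketoreductase of the elongation cycle, had 30.2, 29.4 and 30.3 FPKM with PD325901, 95, 89.9 and 88.4 FPKM with RAD001 and 114, 92.9 and 94.7 FPKM with GDC0941, against 81.1, 92.7 and 92.3 FPKM with DMSO. Its PD325901 libraries overlapped no other group, and the other 9 lay between 81.1 and 114 FPKM (log2 difference -1.53 ± 0.09, adjusted p = 9.63e-07 for PD325901). Ptpla, a dehydratase of the same cycle, fell with PD325901 too (log2 difference -1.19 ± 0.23, adjusted p = 0.00149) and not with RAD001 (log2 difference -0.12 ± 0.23, adjusted p = 0.712).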

How the data were processed

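RNA-seq of total RNA was measured in 12 libraries, 3 for each of PD325901, RAD001, GDC0941 and DMSO. The authors deposited 1 table of FPKM values per gene symbol. TopHat2 2.0.4, Cuffdiff and mm9 are named per the submitters' processing notes, and the annotation, the Cuffdiff version, the counting of shared or antisense reads and any scaling are among the steps not given in the sources used here. Counts were not analysed here, and relative depth came from the steps between low FPKM values, so no counting interval is given.

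The 10305 genes averaging 1 FPKM or more were fitted as log2(FPKM + 1) with limma 3.58.1 in R 4.3.3, with 4 group means, 8 residual degrees of freedom and a trended, moderated variance. The 6 comparisons were two-sided, with Benjamini-Hochberg adjustment over all genes and a threshold of 0.05. The procedure was tested on simulated data. Alternatives were pseudocounts of 0.1 and 5, quantile normalization, median-ratio scaling, no filter, a filter of 5 FPKM, the 2 groups alone, a replicate block, library weights, each library left out, and replicate 1 left out of every group.

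The members and the lists were chosen with earlier results of these data known. Values in every library are given for the 3 genes of each role with the smallest adjusted p in any comparison with DMSO, for Srebf1, Srebf2, Insig1 and Insig2, and for up to 2 genes of each companion list. Dhcr7 and Fdft1 were added to these after their values were seen. Replicate numbers are in the labels. Deviations from group means correlated, across genes, at 0.183 or more in each same-numbered pair of PD325901 and DMSO, 0.201 for RAD001 and DMSO, 0.149 for PD325901 and RAD001 and 0.309 for GDC0941 and RAD001. The lowest value was 0.0354 for GDC0941 and DMSO and -0.139 for PD325901 and GDC0941.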

Additional observations from a re-analysis of the deposited data

How the results depend on the processing

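With 1 library left out at a time, the number of the 42 genes that changed was 24 to 29 with PD325901 against DMSO (29 with all libraries), 16 to 27 with RAD001 (26), 1 to 14 with GDC0941 (3), 10 to 14 for PD325901 against RAD001 (15), 22 to 29 for PD325901 against GDC0941 (28) and 11 to 23 for GDC0941 against RAD001 (20). Calls kept in every such fit were 24 of 29, 15 of 26, 1 of 3, 8 of 15, 20 of 28 and 11 of 20. Without a filter on low values the count was 13 for RAD001, 8 for PD325901 against RAD001 and 12 for GDC0941 against RAD001. In the fit of the 2 groups alone it was 1 for GDC0941 and 10 for GDC0941 against RAD001. With library weights it was 18 for GDC0941 and 26 for PD325901 against RAD001. Without replicate 1 of every group it was 37 for PD325901, 34 for RAD001 and 26 for GDC0941. Among genes called with GDC0941 in that fit or with all libraries, the difference changed sign for Idi1 (log2 difference -0.38), Sqle (-0.29) and Aacs (-0.27). Sign changes of genes called in neither fit are not listed. The share of all genes called in the same fits is not given beside these counts, so the shifts show nothing particular to the 42 genes. The cause of these shifts was not tested.

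With the replicate block the counts were 30, 26, 3, 15, 28 and 21, in the same order of comparisons. The share of all genes called with the block is not given here either, so these counts show nothing particular to the 42 genes. The block gave calls for Acly with PD325901 (adjusted p = 0.0479) and for Acat2 and Fasn with GDC0941 against RAD001 (adjusted p = 0.0443 and 0.0462), ended that of Srebf1 there, and changed no other call of the 42 genes. Over all genes tested, not every same-numbered pair correlated at over 0.1 for GDC0941 and DMSO or for PD325901 and GDC0941. Over the 42 genes, such pairs correlated at 0.211 or more for PD325901 and DMSO and 0.468 or more for GDC0941 and RAD001. In the other comparisons they correlated negatively, down to -0.301 for RAD001 and DMSO and -0.495 for PD325901 and RAD001. Whether the numbers pair samples is therefore not settled. Over all genes tested, 1893 were higher and 2909 lower with PD325901 than with DMSO as deposited, and 2675 and 2455 after quantile normalization. With no counts, the depth behind each value is known only relative to DMSO replicate 1, and values near 1 FPKM carry the least precision.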

Other observations

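Mitochondria make fatty acids by a separate pathway that supplies the precursor of lipoic acid. Of its 5 genes, 3 were lower and 1 higher with PD325901, 1 was lower with RAD001 and 1 was higher with GDC0941. Of all genes tested, 46.6% changed with PD325901, 31.3% with RAD001 and 24.3% with GDC0941, and so short a list was not tested against those shares. Mecr, the last reductase of that cycle, had 6.28, 4.86 and 5.47 FPKM with PD325901, 9.44, 8.85 and 9.15 FPKM with RAD001 and 13.6, 13.3 and 16.6 FPKM with GDC0941, against 9.88, 12.1 and 11.2 FPKM with DMSO. PD325901 libraries were the 3 lowest and RAD001 libraries lay just below DMSO. Mecr fell with PD325901 (log2 difference -0.88 ± 0.11, adjusted p = 9.77e-05) and was called higher with GDC0941 (log2 difference 0.36 ± 0.11, adjusted p = 0.0362), a call that ended without GDC0941 replicate 3, DMSO replicate 1 or DMSO replicate 3 (adjusted p = 0.118, 0.123 and 0.0822). Cbr4, a subunit of the ketoreductase, fell with RAD001 (log2 difference -0.47 ± 0.10, adjusted p = 0.00572).

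Of 11 genes of glycerolipid synthesis, 4 were higher and 1 lower with PD325901, 1 was lower with RAD001, and 1 was higher and 2 lower with GDC0941. The shares of all genes changed were 46.6%, 31.3% and 24.3% in the same order, and the counts are not read as a result about the list. Dgat2 and Dgat1, which make triacylglycerol from diacylglycerol, were higher with PD325901 and lower with GDC0941. Dgat2 had 25.9, 18.9 and 21.2 FPKM with PD325901, 8.35, 6.62 and 7.26 FPKM with RAD001 and 5.18, 6.36 and 5.33 FPKM with GDC0941, against 8.99, 9.37 and 8.78 FPKM with DMSO. PD325901 libraries were the 3 highest, and GDC0941 libraries all lay below DMSO. Its difference from DMSO was 1.18 ± 0.12 with PD325901 (adjusted p = 2.6e-05) and -0.61 ± 0.12 with GDC0941 (adjusted p = 0.0045). Dgat1 had 35.5, 24.4 and 23 FPKM with PD325901, 12.8, 13.2 and 15 FPKM with RAD001 and 6.42, 8.01 and 9.92 FPKM with GDC0941, against 14.6, 13.2 and 13.2 FPKM with DMSO, with the PD325901 libraries highest and the GDC0941 libraries lowest (log2 difference 0.94 ± 0.17, adjusted p = 0.000932 for PD325901 and log2 difference -0.70 ± 0.17, adjusted p = 0.0106 for GDC0941).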
